A study of Canis lupus familiaris with 8 samples.

Results

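The genes described here build or organise the extracellular matrix outside the main fibrillar collagens: 55 genes for basement membrane, other collagens, proteoglycans, matricellular and elastic fibre proteins, collagen-processing enzymes, transforming growth factor beta (TGF-beta) signalling and the cell's side of the matrix. They were chosen by symbol, and 35 of the 55 had at least 1 probe set that the platform annotation assigns to a single gene, among 6540 such genes on the array. Each gene was read from its brightest probe set by mean signal over all arrays. Of the 35, 33 were bright enough to be tested, while COL6A3 and POSTN fell among the dimmest 40% of probe sets. The other 20 genes were not measured here: COL18A1, LAMA2, NID1, NID2, COL6A2, COL8A1, LUM, FMOD, OGN, VCAN, THBS4, TNC, MGP, FBLN5, LOX, LOXL1, PLOD1, PLOD2, TGFB3 and TGFBR1. CTGF is the older name of CCN2 and was counted with it.

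Each of 8 male dogs, weighing 23 to 27 kg, gave cardiac total RNA for its own Affymetrix canine array. The 4 control dogs were compared with 4 dogs with hyperhomocysteinemia (HHcy), a raised blood level of homocysteine, which followed 2 weeks of drinking water with added methionine. The labels name no strain, age, heart chamber or homocysteine level. The series asks which cardiac genes differ in expression in chronic HHcy.

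The extracellular matrix of the heart is made largely by fibroblasts and vascular cells, and it holds cardiomyocytes and vessels in place. Cardiomyocytes, endothelial cells and smooth muscle cells sit on a basement membrane of collagen IV, laminins, nidogens and perlecan, while fibrillar collagens, proteoglycans and elastic fibres fill the space between cells. TGF-beta is a main inducer of matrix genes, and matricellular proteins such as thrombospondins, periostin and CCN2 are known to be induced in injured or fibrotic myocardium.

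No matrix gene passed the test. The limma test with Benjamini-Hochberg adjustment over all 14301 probe sets called 0 of the 33, against a background of 0.0979% of probe sets called higher and 0% called lower in HHcy. At an unadjusted p under 0.05, 4 of the 33 were higher (12.1%) and 1 was lower (3.03%), against 11.9% and 5.94% of all probe sets tested. The share of matrix genes reaching that level was thus close to the background. Each matrix gene was counted once, by its brightest probe set, while the background counted every probe set tested. The 5 genes were COL5A1, DCN, THBS2 and FBLN1 in the higher direction and P4HA1 in the lower one. Log2 fold changes of the 33 ran from -1.40 to 1.54 with a median of 0.57, beside a median of 0.15 over all probe sets tested. Of the 33, 26 had a log2 fold change above 0 (78.79%) and 7 below, where 59.98% of all probe sets were above 0. The median was 0.33 without HHcy 6, where that of all probe sets was 0.11, and 0.27 when all probe sets of a gene were averaged. Adding the RNA quality measure described next as a covariate brought it to 0.044, beside 0.067 for all probe sets.

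Array HHcy 6 stands apart from the rest, and it bears on every value below. The 3'/5' signal ratio of the actin control, which rises when RNA is degraded, reached 599.6 for HHcy 6 and 15.3 for HHcy 5, the other 6 arrays having 0.378 to 2.67. For the GAPDH control it was 10.5 and 17.2, against 1.46 to 5.14. All 9 cardiomyocyte markers with a probe set were measured, MYL3, TNNT2 and MYH7 among them, and their signals added up to 15429 on HHcy 6, compared with 176690 to 282670 in the controls and 193730 to 218660 for HHcy 5, 7 and 8. The 5 measured smooth muscle markers, led by ACTA2 and MYH11, summed to 63358 on HHcy 6, where the controls had 3394 to 11712 and HHcy 5, 7 and 8 had 8227 to 9593. That sum rested on ACTA2, MYH11 and TAGLN, the last at 10692 on HHcy 6 against 543 to 1559 in controls. SMTN was lower on HHcy 6 than on the other HHcy arrays, at 2907, and MYLK, at 191, was no higher than on HHcy 7 and 8. By these markers the HHcy 6 array had far less cardiomyocyte signal than the other 7 arrays, though MYH7 was still at 6889 on it. Whether this came from the tissue sampled or from RNA quality was not tested. In bulk tissue, fewer cells of a type and less RNA per cell cannot be told apart. The part of tissue make-up and of RNA quality in the matrix values was not tested, and the value without HHcy 6 is given for each gene that this array moved by over 1.5 times.

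HHcy 6 carried the highest signal of the 8 arrays for 21 of the 33 matrix genes (63.6%), beside 35.3% of all probe sets tested. It lay above all 4 controls for 23 of them (69.7%, against 45.6% of all probe sets). The median difference of the matrix genes from the control mean, on the log2(signal + 24) scale, was 1.20 on HHcy 6, 0.29 on HHcy 5, 0.45 on HHcy 7 and 0.027 on HHcy 8. On the controls it ran from -0.39 to 0.32, so HHcy 5 and HHcy 8 lay within the control range and HHcy 7 just above it. HHcy 7 exceeded every control for 13 matrix genes (39.4%, against 22.4% of all probe sets), HHcy 5 for 10 (30.3%, against 35.1%) and HHcy 8 for 4 (12.1%, against 25.7%). Over all probe sets tested, the same median was 0.21 on HHcy 5, 0.38 on HHcy 6, 0.049 on HHcy 7 and 0.12 on HHcy 8. The median of the matrix genes thus differed among the 4 HHcy arrays, as it also did among the controls.

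**Figure D1:**
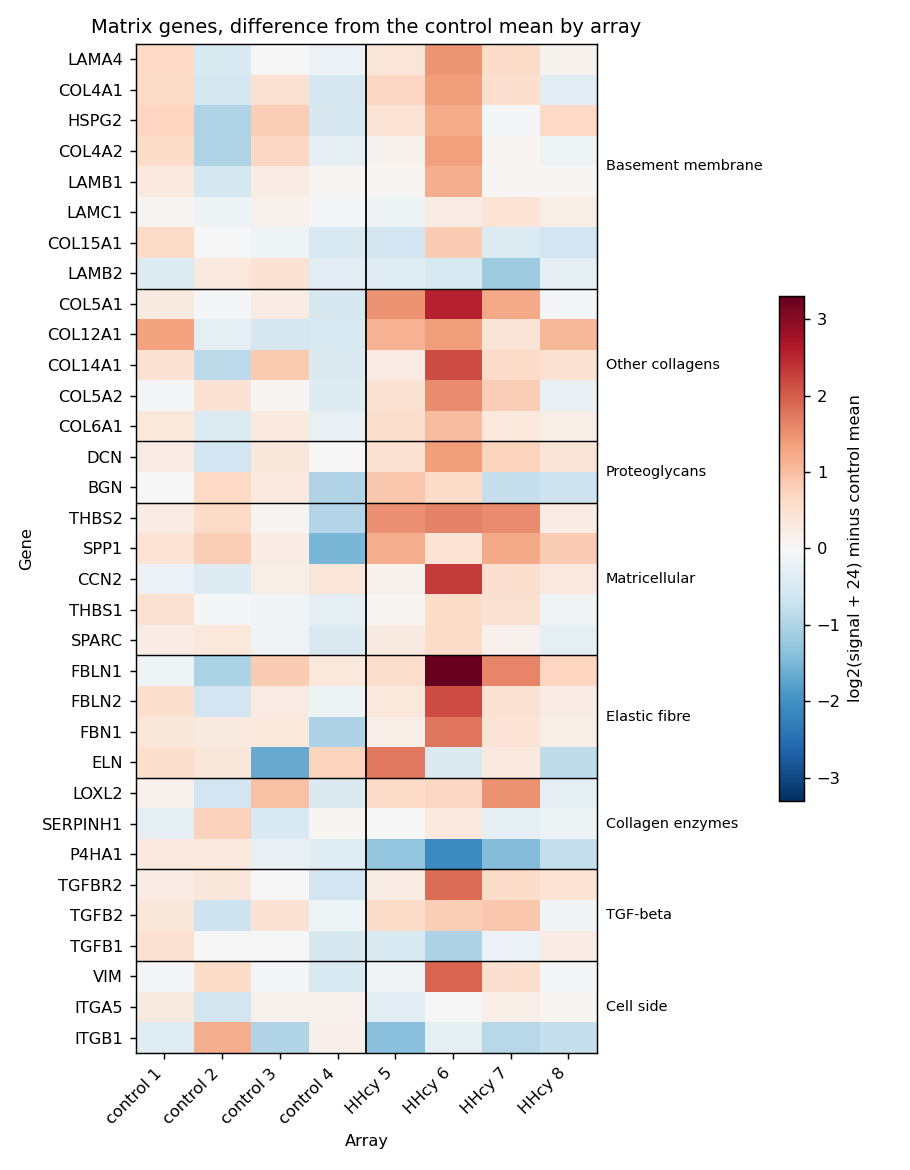
Log2(signal + 24) of each of the 33 tested matrix genes (rows, grouped by role) on each of the 8 arrays (columns), as the difference from that gene's control mean; red is above and blue below the control mean. The HHcy 6 column is red in most rows, with a median of 1.20, while HHcy 8, with a median of 0.027, resembles the controls, and P4HA1 is blue on all 4 HHcy arrays.

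In the sentences that follow, the 4 control signals are given in the order control 1 to 4, and the 4 HHcy signals in the order HHcy 5 to 8, in linear MAS5 units. Signals of different genes are not set against each other, since probe sets differ in brightness. Log2 fold changes are HHcy over control, with standard errors.

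Among basement membrane genes, 8 of 12 had a probe set, and the median of their log2 fold changes was 0.33 with all arrays and 0.096 without HHcy 6. None of the 8 reached an unadjusted p under 0.05. LAMA4, the alpha 4 laminin chain of vessel and muscle basement membranes, had signals of 5204, 2334, 3351 and 2887 in controls and 4354, 9060, 5006 and 3581 in HHcy. Only HHcy 6 lay above the highest control, and the log2 fold change was 0.64 ± 0.33 (SE, limma adjusted p 0.332), or 0.37 without that array. Dimmer LAMA4 probe sets had -0.42, -0.76 and 0.22. COL4A1, a chain of the main collagen IV network, had 6753, 2949, 6172 and 2993 in controls and 7040, 11484, 6438 and 3450 in HHcy. The groups overlapped widely, and the log2 fold change was 0.57 ± 0.40 (SE, adjusted p 0.453), or 0.30 without HHcy 6. Its other tested probe sets had 0.090, 0.41 and -0.073. COL4A2 encodes its partner chain, and the gene pair is transcribed from a shared promoter region in mammals. Its signals were 1597, 508.3, 1695 and 834.5 in controls and 1126, 2684, 1084 and 930.3 in HHcy, with a log2 fold change of 0.34 ± 0.43 (SE) that was 0.0068 without HHcy 6. In both collagen IV genes controls 1 and 3 were the high controls, controls 2 and 4 the low ones, and HHcy 6 the highest array.

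HSPG2, the heparan sulfate proteoglycan perlecan, had the same order of controls, with 1327, 387.2, 1430 and 547.2, and HHcy signals of 1095, 1901, 774.0 and 1269. HSPG2 came to 0.57 ± 0.43 on the log2 scale (SE, adjusted p 0.488), or 0.35 without HHcy 6, and a dimmer probe set had -0.35. Controls 1 and 3 both lay above controls 2 and 4 for 6 of the 8 basement membrane genes and for 14 of the 33 matrix genes (42.4%), beside 16.6% of all probe sets tested. That pattern was picked out after the values were seen, and its source was not tested. LAMB1, a common laminin beta chain, had a log2 fold change of 0.32 ± 0.32 (SE), which was 0.033 without HHcy 6. Its HHcy signals were 4459, 9944, 4404 and 4407, and those on HHcy 5, 7 and 8 lay within the control range of 2859 to 5395. LAMC1, the gamma 1 chain that most laminins share, had 347 ± 37.2 in controls against 401 ± 71.4 in HHcy (SD, n = 4 each), and a further probe set came to -0.57 on the log2 scale.

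LAMB2 and COL15A1 had log2 fold changes below 0. LAMB2, the laminin beta 2 chain of muscle and vessels, had 179, 320, 364 and 193 in controls and 186, 173, 99.0 and 199 in HHcy. HHcy 6 and HHcy 7 lay under the lowest control, and the log2 fold change of -0.59 ± 0.33 (SE, adjusted p 0.360) was -0.63 without HHcy 6. COL15A1, a collagen that links basement membrane to the matrix around it, had control signals of 862.8, 547.8, 490.1 and 382.1. Its HHcy signals were 342.8, 1003, 394.5 and 345.6, so HHcy 5 and HHcy 8 lay under every control while HHcy 6 lay above every control. COL15A1 came to -0.22 ± 0.38 on the log2 scale (SE) with all arrays and -0.57 without HHcy 6 (adjusted p 0.376).

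Of the 8 other collagens, 5 were tested, and all 5 had log2 fold changes above 0, with a median of 0.88 (0.46 without HHcy 6). COL5A1 encodes the main chain of collagen V, which starts collagen I fibrils and sets their diameter. Its signals were 1532, 1226, 1512 and 858.0 in controls and 3538, 7317, 2980 and 1219 in HHcy. HHcy 5, 6 and 7 lay above every control, while HHcy 8 was within the control range. The log2 fold change was 1.30 ± 0.45 (SE, unadjusted p 0.0139, adjusted p 0.194), and 0.90 ± 0.35 (SE) without HHcy 6. COL5A2, the second collagen V chain, had a smaller difference in the same arrays, with 474, 712, 511 and 364 in controls and 725, 1524, 894 and 421 in HHcy. HHcy 5 exceeded its highest control only narrowly, and the log2 fold change was 0.66 ± 0.37 (SE, adjusted p 0.363), or 0.36 without HHcy 6. Of its other tested probe sets, the brighter had 0.34 and the dimmer 1.07.

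COL12A1 and COL14A1 encode collagens that coat the surface of collagen I fibrils. COL12A1 was dim, with control signals of 175, 40.4, 29.98 and 32.0 and HHcy signals of 151, 180, 81.8 and 144. Control 1 stood among the HHcy arrays, and the other 3 controls lay below all of them. On the log2 scale this came to 1.01 ± 0.48 (SE, adjusted p 0.296), and it became 0.57 with a pseudocount of 96 and 1.45 without control 1. COL12A1 passed the filter on dim probe sets only through the HHcy arrays, its control mean lying under the filter level. COL14A1 had 660.0, 247.6, 877.9 and 328.0 in controls and 568.1, 2148, 734.5 and 671.3 in HHcy. Only HHcy 6 lay outside the control range. Its log2 fold change was 0.88 ± 0.47 (SE, adjusted p 0.344), or 0.46 without HHcy 6, and its dim further probe sets had -0.34, 0.53 and 0.62.

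COL6A1, a chain of the beaded collagen VI filaments next to cells, had 561, 310, 550 and 364 in controls and 661, 905, 560 and 494 in HHcy. HHcy 5 and 6 lay above every control, and the log2 fold change was 0.54 ± 0.29 (SE, adjusted p 0.350), with 0.24 for a dimmer probe set. COL6A3, the large chain of the same collagen, was too dim to test, with 33.5 ± 31.7 in controls against 75.0 ± 95.5 in HHcy (SD, n = 4 each). Its HHcy mean rested on HHcy 6, at 217, the other HHcy arrays having 15.4 to 46.3.

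Decorin and biglycan were the small leucine-rich proteoglycans with a probe set, and whether they differ from each other was not tested. Decorin (DCN), which binds collagen fibrils and sequesters TGF-beta, had signals of 12351, 6606, 13468 and 10281 in controls and 14686, 26733, 17121 and 13788 in HHcy. Every HHcy array lay above every control, which held for 1 of the 33 matrix genes (3.03%) and for 7.49% of all probe sets tested, although HHcy 8 exceeded control 3 by little. The DCN log2 fold change was 0.76 ± 0.30 (SE, unadjusted p 0.0256, adjusted p 0.229), and 0.55 ± 0.24 (SE) without HHcy 6. Other DCN probe sets had 0.010 and 0.52, the former with signals of 4915 ± 1046 and 5088 ± 1704 (SD, n = 4 each). Biglycan (BGN), its close relative, had dim signals of 91.8, 157, 118 and 33.3 in controls and 186, 149, 42.8 and 47.3 in HHcy. Its groups overlapped fully, and the log2 fold change of 0.0073 ± 0.51 (SE, adjusted p 0.994) was below 0 with both quantile and median scaling, and -0.19 without HHcy 6.

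The matricellular proteins act on cells more than they build the matrix. All 5 that were tested had log2 fold changes above 0, with a median of 0.83, and 0.33 without HHcy 6. THBS2, the collagen-binding thrombospondin 2, had 609, 810, 549 and 249 in controls and 1502, 1656, 1562 and 612 in HHcy. HHcy 5, 6 and 7 were close together and well above the controls, and HHcy 8 lay inside the control range. For THBS2 the log2 fold change was 1.24 ± 0.40 (SE, unadjusted p 0.00992, adjusted p 0.178). It kept most of its size without HHcy 6, at 1.11 ± 0.41 (SE), and its adjusted p over the alternatives ran from 0.116 without HHcy 8 to 0.915. THBS1, a TGF-beta activator, had 472, 312, 302 and 261 in controls and 344, 517, 477 and 304 in HHcy, with overlapping groups and a log2 fold change of 0.27 ± 0.28 (SE), or 0.16 without HHcy 6.

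SPP1, osteopontin, a cytokine-like matrix protein made by macrophages and by injured myocardium, had 414, 538, 353 and 89.3 in controls and 707, 411, 737 and 544 in HHcy. HHcy 5, 7 and 8 lay above every control, and HHcy 6 did not. Its log2 fold change was 0.93 ± 0.45 (SE, adjusted p 0.304), and 1.09 without HHcy 6 and 0.43 without control 4. CCN2, the connective tissue growth factor induced by TGF-beta, had 3815, 3285, 5048 and 5837 in controls and 4791, 21972, 6327 and 5506 in HHcy. HHcy 6 stood far above all other arrays, and the log2 fold change of 0.83 ± 0.43 (SE, adjusted p 0.335) was 0.33 without it. SPARC, a collagen-binding glycoprotein of remodelling tissue, had 16462, 17877, 12983 and 9970 in controls and 17087, 21316, 15522 and 11226 in HHcy. Its log2 fold change was 0.18 ± 0.27 (SE, adjusted p 0.737), below 0 with median scaling and 0.042 without HHcy 6, and its other probe sets had 0.29 and 0.21.

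Periostin (POSTN), a protein of activated fibroblasts, was below the brightness needed for the test. Its signals were 7.40, 17.9, 77.8 and 20.2 in controls and 127, 244, 133 and 123 in HHcy. Every HHcy array lay above every control, HHcy 8 included. With no filter on dim probe sets its log2 fold change was 1.83 ± 0.48 (SE, unadjusted p 0.00208, adjusted p 0.166), a size that depends on the pseudocount of 24, since 3 of the 4 control signals lie under it.

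**Figure D2:**
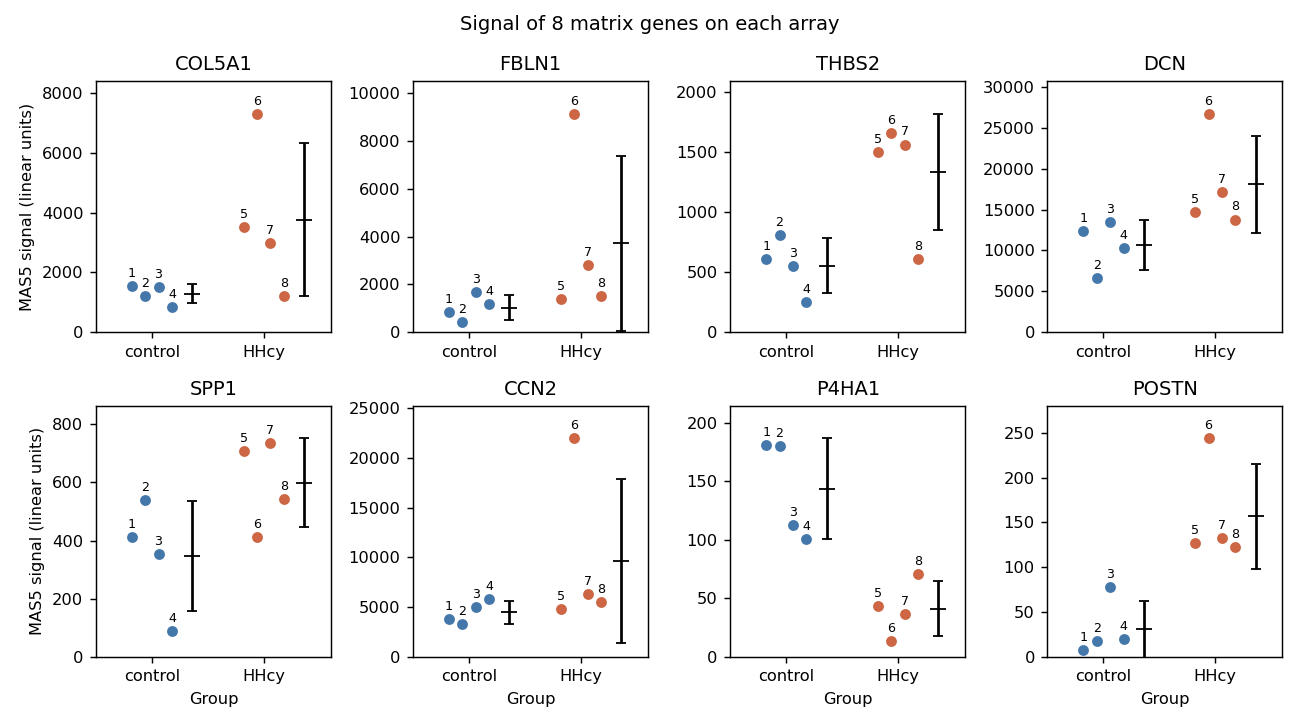
MAS5 signal (linear units, axes from 0) of 8 matrix genes on each array, numbered by dog, with the group mean and SD (n = 4) in black beside the points. HHcy 6 is the highest point for COL5A1, FBLN1, DCN, CCN2 and POSTN, THBS2 is high on HHcy 5, 6 and 7 at 1502 to 1656, and P4HA1 is lower on all 4 HHcy arrays.

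The 4 tested elastic fibre genes had log2 fold changes with a median of 0.73, and of 0.39 without HHcy 6. FBLN1, fibulin 1, a glycoprotein of elastic fibres and basement membranes, had 822.7, 431.3, 1663 and 1178 in controls and 1381, 9136, 2827 and 1515 in HHcy. HHcy 6 and 7 lay above the highest control, and HHcy 5 and 8 within the control range. The log2 fold change was 1.54 ± 0.57 (SE, unadjusted p 0.0197, adjusted p 0.213), and 0.96 ± 0.40 (SE) without HHcy 6. A second FBLN1 probe set gave 1.71 with all arrays and 1.18 without HHcy 6. FBLN2, a related fibulin of vessel walls and developing valves, had 1362, 603.9, 1140 and 830.6 in controls and 1212, 4243, 1339 and 1115 in HHcy. Its HHcy arrays other than HHcy 6 lay within the control range, and the log2 fold change of 0.81 ± 0.42 (SE, adjusted p 0.333) was 0.37 without HHcy 6.

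FBN1, fibrillin 1, the core of microfibrils, followed the same arrays, with 3504, 3290, 3437 and 1300 in controls and 3106, 9115, 3663 and 3067 in HHcy. FBN1 came to 0.65 ± 0.42 on the log2 scale (SE, adjusted p 0.420), or 0.28 without HHcy 6. Its further probe sets, all dim, had -0.30, -0.39 and -0.75. ELN, the elastin precursor, was dim and scattered, with 180, 157, 19.5 and 206 in controls and 441, 76.0, 149 and 54.2 in HHcy. HHcy 6 was low here, unlike in the fibulins and fibrillin, and the log2 fold change of 0.19 ± 0.64 (SE) was below 0 with both quantile and median scaling and 0.41 without HHcy 6.

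The collagen-processing enzymes included the gene with the lowest unadjusted p of the 33 tested. P4HA1, the catalytic subunit of prolyl 4-hydroxylase, which makes collagen helices stable, had 181, 180, 112 and 100 in controls and 43.4, 13.8, 36.3 and 70.9 in HHcy. Every HHcy array lay below every control, as did 3.89% of all probe sets tested, and it was the only matrix gene to do so. P4HA1 thus had a log2 fold change of -1.40 ± 0.42 (SE, unadjusted p 0.00634, adjusted p 0.162), and -1.16 ± 0.41 (SE) without HHcy 6. It passed the filter on dim probe sets through the controls, its HHcy mean lying under the filter level, so its being tested was not independent of the difference. With a pseudocount of 96 it was -0.80 and with one of 6 it was -1.78, since the HHcy signals are near the pseudocount. Its adjusted p ran from 0.135 to 0.917 over the alternatives. LOXL2, a lysyl oxidase that crosslinks collagens, had 630, 357, 1138 and 403 in controls and 894, 928, 1633 and 454 in HHcy. Its groups overlapped, and the log2 fold change was 0.62 ± 0.43 (SE, adjusted p 0.447) and 0.60 without HHcy 6. SERPINH1, the collagen chaperone HSP47, had 384, 845, 339 and 506 in controls and 486, 614, 388 and 427 in HHcy, with a log2 fold change of -0.0425 ± 0.31 (SE), or -0.16 without HHcy 6.

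Of the 5 TGF-beta genes, 3 had a probe set. TGFBR2, the type II receptor that binds the ligand, had 2089, 2270, 1749 and 1121 in controls and 2080, 6381, 2662 and 2389 in HHcy. HHcy 6, 7 and 8 lay above every control, and HHcy 5 did not. The log2 fold change was 0.79 ± 0.37 (SE, adjusted p 0.287), or 0.43 without HHcy 6, and a further probe set had 0.63. The ligand TGFB2 was dim, at 113, 42.4, 123 and 71.8 in controls and 139, 161, 174 and 76.7 in HHcy, and came to 0.56 ± 0.39 on the log2 scale (SE, adjusted p 0.455). The ligand TGFB1, the main isoform of injured tissue, had 155, 102, 101 and 63.6 in controls and 64.4, 37.9, 86.2 and 125 in HHcy. The groups overlapped, and the log2 fold change was -0.37 ± 0.41 (SE, adjusted p 0.643), or -0.15 without HHcy 6.

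On the cell side of the matrix, ITGB1, the beta 1 subunit shared by most collagen and laminin receptors, had 225, 731, 142 and 347 in controls and 102, 245, 151 and 170 in HHcy. Only HHcy 5 lay below the lowest control. ITGB1 came to -0.83 ± 0.44 on the log2 scale (SE, adjusted p 0.341), and -0.43 without control 2, the highest array. ITGA5, its partner in the fibronectin receptor, had 1783, 933.5, 1602 and 1603 in controls and 1113, 1424, 1673 and 1512 in HHcy, with a log2 fold change of -0.0231 ± 0.27 (SE). Vimentin (VIM), the intermediate filament of fibroblasts and other mesenchymal cells, had 3897, 6253, 3927 and 2861 in controls and 3808, 15419, 5859 and 3952 in HHcy. Only HHcy 6 lay outside the control range, and the log2 fold change of 0.58 ± 0.42 (SE, adjusted p 0.476) was 0.13 without it.

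**Figure D3:**
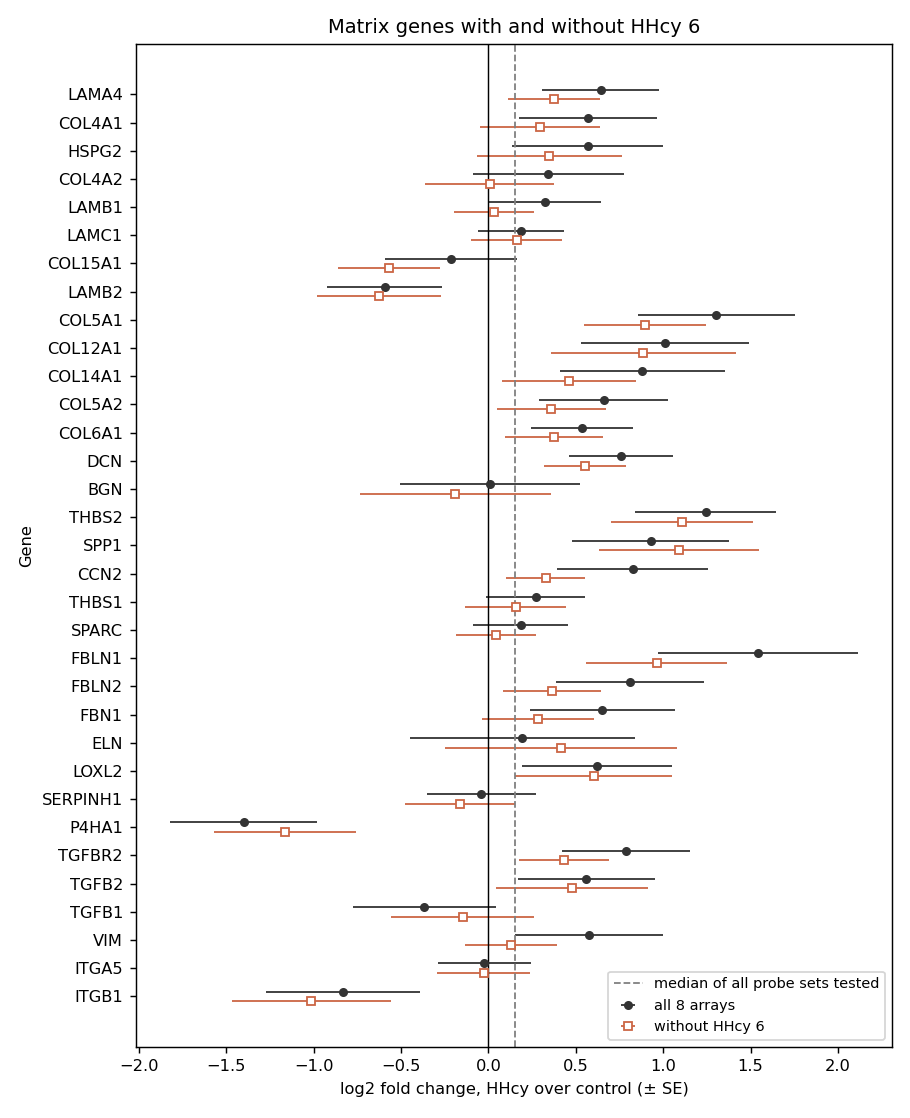
Log2 fold change, HHcy over control, with standard error, of the 33 tested matrix genes with all 8 arrays (filled circles) and without HHcy 6 (open squares); the dashed line is the median of all probe sets tested, 0.15. Leaving out HHcy 6 moved 29 of the 33 values down, and the values farthest from 0 without it were those of P4HA1 (-1.16), THBS2 (1.11), SPP1 (1.09) and ITGB1 (-1.01).

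Leaving out HHcy 6 lowered the log2 fold change of 29 of the 33 genes. In that setting limma called 0 of the 33, with 0.119% of all probe sets called higher and 0.00699% lower, and 5 were higher and 2 lower at an unadjusted p under 0.05, where 8.62% and 6.24% of all probe sets were. These were THBS2, COL5A1, FBLN1, SPP1 and DCN in the higher direction, and P4HA1 and ITGB1 in the lower one. Without HHcy 8, whose matrix gene median was nearest to the control mean, 10 genes were higher at that level and 0 passed. In that setting 31 of all probe sets passed, beside 14 with all arrays. Without both HHcy 5 and HHcy 6, the arrays of high 3'/5' ratio, 1 was higher and 1 lower, and 0 passed. The share of all probe sets at that level was not computed for either of these settings. Where a gene had further tested probe sets, 14 of 23 had the sign of the brightest.

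Of the fibrillar collagens and fibronectin, which the matrix genes surround in tissue, COL1A1, COL1A2 and FN1 gave larger values on the same arrays, and COL3A1 did not. The log2 fold change was 2.35 ± 0.64 for COL1A2 (SE, adjusted p 0.148), and in the same terms FN1 had 2.17 ± 0.45 (SE, adjusted p 0.113) and COL1A1 had 1.59 ± 0.54 (SE, adjusted p 0.193), while the brightest COL3A1 probe set had -0.48 ± 0.60 (SE). COL1A2 passed without HHcy 8, at 3.02 (adjusted p 0.0394), and FN1 passed with array weights, at 2.02 (adjusted p 0.0376). The median of these 4 was 2.45 for HHcy 5, 2.22 for HHcy 6, 1.76 for HHcy 7 and 0.15 for HHcy 8, with -1.08 to 0.68 in the controls. Their median thus stood high on HHcy 5, where the median of the 33 matrix genes was 0.29. COL3A1 was not high there, with 154 on HHcy 5 inside its control range of 70.3 to 317. Whether the matrix genes and the fibrillar collagens differ in response was not tested.

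Further genes of the same pathways were read from lists of related genes. Of 29 other TGF-beta pathway genes, 6 were tested and 0 passed, with 2 higher at an unadjusted p under 0.05 (33.3%, against 11.9% of all probe sets) and 0 without HHcy 6. They were PMEPA1, a TGF-beta target (log2 fold change 1.02 ± 0.37, SE), and LTBP3, which anchors latent TGF-beta (1.07 ± 0.41, SE), and both had 0.69 without HHcy 6. Of 17 other collagen-processing genes, 6 were tested and 0 passed, with 3 higher at that level (50% against the same 11.9%), and 2 without HHcy 6. PCOLCE, an enhancer of procollagen cleavage, averaged 415 ± 215 in controls against 1349 ± 751 in HHcy (SD, n = 4 each), with every HHcy array above every control. Its log2 fold change was 1.64 ± 0.42 (SE, adjusted p 0.141), and 1.31 without HHcy 6. PCOLCE2 had 0.91 ± 0.33 (SE).

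Of 44 symbols for other matrix genes, 17 were tested and 0 passed, with 6 higher at an unadjusted p under 0.05 (35.3%, against 11.9% of all probe sets), and 5 without HHcy 6. CILP, a matrix protein of cartilage and cardiac fibroblasts, had 260 ± 117 in controls against 692 ± 224 in HHcy (SD, n = 4 each), again with no overlap between groups. Its log2 fold change was 1.38 ± 0.35 (SE, adjusted p 0.141), or 1.22 without HHcy 6. The laminin chain LAMA1 had 1.05 ± 0.37 (SE), on signals of 55.9 ± 22.9 and 138 ± 26.2 (SD, n = 4 each), the control mean being under the filter level. Of 15 integrins and dystroglycan, 5 were tested and 0 reached that level. DAG1, the laminin receptor of muscle, had 0.43 ± 0.24 (SE), and ITGAV -0.63 ± 0.38 (SE).

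Markers of other cell types were also high on some arrays. Fibroblast markers were thinly covered, 3 of 10 having a probe set. S100A4 had a log2 fold change of 1.06 ± 0.31 (SE), DPT 0.69 ± 0.29 (SE) and GSN -0.17 ± 0.29 (SE, -0.030 without HHcy 6). GSN was lowest of the 8 arrays on HHcy 6, at 141. S100A4 was highest on HHcy 8, at 2428, with 2192 on HHcy 6. The 3 markers summed to 27419 on HHcy 6, 12685 to 16758 on HHcy 5, 7 and 8 and 8514 to 13427 in the controls, most of each sum being DPT. All 11 measured macrophage markers of 12 had log2 fold changes above 0, as did 59.98% of all probe sets. Of the 11, 0 passed and 8 were higher at an unadjusted p under 0.05 (72.7%, against 11.9% of all probe sets). Without HHcy 6 there were 8, where 8.62% of all probe sets were higher. CD14 had 1.42 ± 0.32 (SE) and FCGR1A 1.52 ± 0.33 (SE). MRC1 had 0.27 (0.12 without HHcy 6), ITGAM 0.27 and LAPTM5 0.22, each with overlapping groups. CD68 passed the filter only through the HHcy arrays, its control mean lying under the filter level. The 11 markers summed to 10698 to 19664 in HHcy and 5635 to 8483 in controls, without overlap. Of 9 endothelial markers 4 had a probe set, PECAM1 at 0.26 ± 0.24 (SE), or 0.13 without HHcy 6, and VWF at -0.59 ± 0.29 (SE), or -0.33. Their sums overlapped, with 20118 to 27907 in controls and 21509 to 31866 in HHcy, most of each sum being PECAM1. VWF was at 815 on HHcy 6, against 1883 to 2467 in controls. TIE1 had -0.27 ± 0.30 (SE), or -0.16 without HHcy 6. KRT8 and KRT18, the measured 2 of 8 mesothelial and epicardial markers, had 2.39 ± 0.56 and 2.18 ± 0.51 (SE). Both passed the filter only through the HHcy arrays, their control means lying under the filter level, and their sums were 36.8 to 160 in controls and 201 to 1052 in HHcy.

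The summed adipocyte and Schwann cell markers were highest on HHcy 6. The adipocyte list, 3 of 6 markers with ADIPOQ at 0.39 and LPL at 0.13 (-0.18 and -0.40 without HHcy 6), summed to 2214 there, 468 to 539 for HHcy 5, 7 and 8 and 399 to 893 in the controls. The Schwann cell list, 2 of 5 with S100B at 1.94 ± 0.97 (SE, 0.78 without HHcy 6), summed to 2304 there and to 16.4 to 161 on the other 7 arrays. S100B made up nearly all of that sum, MBP being at 22.8 on HHcy 6, the lowest of the HHcy arrays, and S100B passed the filter only through the HHcy arrays. Within the smooth muscle list MYLK had 0.62 ± 0.28 and ACTA2 1.44 ± 0.75 (SE), and ACTA2 had 0.55 without HHcy 6. Cardiomyocyte MYL3 and TNNT2 had -2.78 ± 1.40 and -2.43 ± 1.37 (SE), with signals of 27.4 and 24.5 on HHcy 6, and -0.87 and -0.59 without it. Valve and cartilage markers, 3 of 9 with COL2A1 at 0.56 ± 0.43 (SE, 0.35 without HHcy 6), summed to 176 to 479 in controls and 162 to 622 in HHcy. Lymphocyte and platelet markers, 3 of 8 with CD3D at 0.56 ± 0.32 and CD3E at 0.38 ± 0.52 (SE, 0.63 without HHcy 6), summed to 170 to 403 in controls and 269 to 502 in HHcy. CD3E passed the filter only through the HHcy arrays. No marker was listed at 0, the lowest signal of any probe set being 0.232. The part of any of these cell types in the matrix values was not tested.

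**Figure D4:**
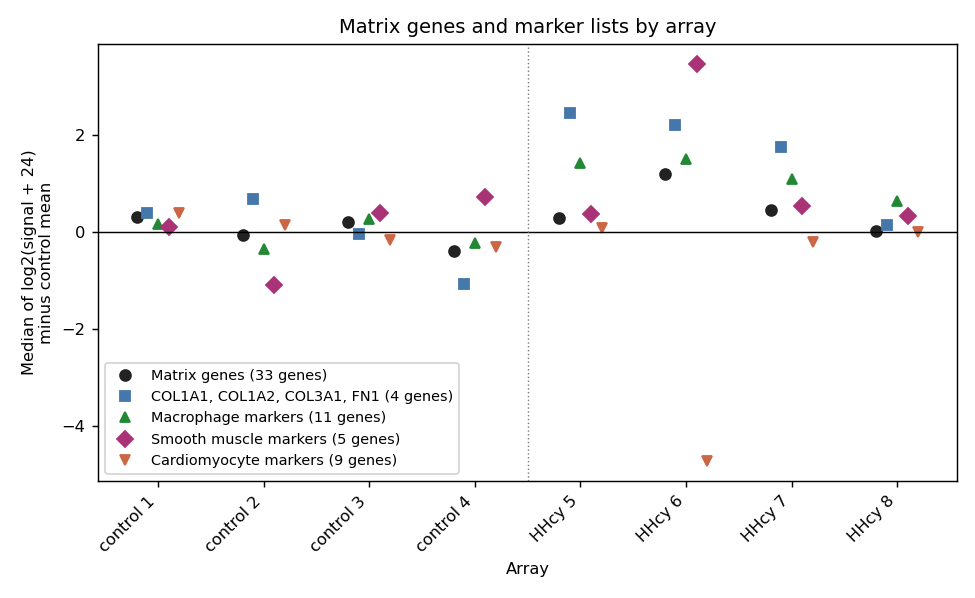
Median difference from the control mean, log2(signal + 24), on each of the 8 arrays for the 33 matrix genes, 4 fibrillar collagen and fibronectin genes, 11 macrophage markers, 5 smooth muscle markers and 9 cardiomyocyte markers. On HHcy 6 the matrix genes (1.20) and smooth muscle markers (3.47) lay high and the cardiomyocyte markers (-4.73) low, while macrophage markers lay at 0.65 to 1.5 on all 4 HHcy arrays.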

How the data were processed

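Per the submitters' processing notes the authors used MAS5, with no version named there, and the deposited values are linear probe set intensities. The arrays share a mean intensity of 500.1 when the top and bottom 2% are ignored, and no scaling was added. Groups come from the titles, and the labels name no batch.

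The annotation gave 10549 of 23913 probe sets a single symbol. Of the 35 member genes, 34 matched the RefSeq gene table (UU_Cfam_GSD_1.0) by gene identifier, and SPARC did not. No coordinates or sequences were used.

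The analysis used log2(value + 24), where 24 is the 20th percentile over all arrays and probe sets. The 77 control probe sets and then the dimmest 40% by mean over all arrays were dropped, leaving 14301. The groups were tested in limma 3.58.1 under R 4.3.3 (lmFit, then eBayes with an intensity trend, Benjamini-Hochberg at 0.05), a procedure tested on simulated data. In each class, members passing or else up to 4 of lowest p were to be given by array. COL4A2, COL15A1, LAMB1, COL5A2, SPARC and POSTN were given so as well, chosen after their values were seen. From each other list, the 2 genes of lowest p were named, with some further genes added after their values were seen. Members and lists were chosen with earlier results of these data known. With 4 arrays per group, their number limits the precision. Alternatives covered scaling, pseudocount, filter, variance model, array weights, a 3'/5' covariate, probe set choice and arrays left out.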

Additional observations from a re-analysis of the deposited data

Results flagged for a closer look

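Within groups of 4 arrays, 66 groups of signals from the 33 tested matrix genes were checked for an array set far apart from the other 3, on the log2(signal + 24) scale. Chance alone marks about 1 group in 20. In all, 9 groups were marked, 4 of them by HHcy 6. That array was the highest of the HHcy group for LAMB1 (9944, the others at 4404 to 4459), FBN1 (9115, the others at 3067 to 3663), FBLN2 (4243, the others at 1115 to 1339) and COL15A1 (1003, the others at 342.8 to 394.5). HHcy 8 was the lowest for THBS2, at 612.4 against 1502 to 1656.

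Among the controls, control 4 had the lowest FBN1 signal, 1300 against 3290 to 3504, and control 2 the lowest ITGA5 signal, 933.5 against 1602 to 1783. Control 3 had the lowest ELN signal, 19.5 against 157 to 206, and control 1 the highest COL12A1 signal, 175 against 29.98 to 40.4.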

How the results depend on the processing

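The number of matrix genes passing was 0 in each of the 20 settings. The number higher at an unadjusted p under 0.05 was 4, and became 2 with median scaling, 1 with the 3'/5' covariate, 1 without HHcy 5 and HHcy 6, and 4 to 10 when 1 array was left out. The number lower was 1, and became 3 with quantile or median scaling, 0 with the dimmest 60% left out or the 3'/5' covariate, and 1 to 2 when 1 array was left out. Shares of all probe sets at that level were computed only for the main fit and without HHcy 6. The median log2 fold change of 0.57 became 0.044 with the covariate, and ran from 0.33 to 0.77 when 1 array was left out. Over all probe sets, 14 passed, and 7 with quantile normalization, 22 with median scaling, 9 with the dimmest 60% left out, 76 with array weights, 5 with the covariate, 5 without HHcy 5 and HHcy 6, and 3 to 31 when 1 array was left out. Median scaling moved the median of all probe sets from 0.15 to -0.18 and that of the matrix genes to 0.21. No paired analysis was possible because the groups share no replicate numbers.

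Some log2 fold changes changed sign, none of them passing. With the covariate they were BGN -0.55, CCN2 -0.0083, COL4A1 -0.21, COL4A2 -0.52, FBLN2 -0.085, HSPG2 -0.079, LAMB1 -0.30, SPARC -0.078 and TGFB1 0.10, and outside the matrix genes ACTA2 -0.20, ADIPOQ -0.34, COL2A1 -0.13, LPL -0.50, PECAM1 -0.072, S100B -0.045, MYL3 0.59 and TNNT2 0.92. With median scaling they were BGN -0.29, COL4A2 -0.016, ELN -0.076, LAMB1 -0.040, LAMC1 -0.16, SPARC -0.18, THBS1 -0.070, LPL -0.22 and PECAM1 -0.11. Quantile normalization gave BGN -0.26, ELN -0.014 and ITGA5 0.041. Array weights gave BGN -0.030, COL4A2 -0.086, LAMB1 -0.0033, SERPINH1 0.0051 and LPL -0.17. Without HHcy 5 and HHcy 6 the values were BGN -0.73, COL4A2 -0.047, ELN -0.25, ITGA5 0.14, SPARC -0.082, TGFB1 0.030, COL2A1 -0.18, LPL -0.40 and PECAM1 -0.0057. When 1 array was left out, BGN ran from -0.32 to 0.27, ELN from -0.36 to 0.53, ITGA5 from -0.23 to 0.090, SERPINH1 from -0.21 to 0.21, COL3A1 from -0.80 to 0.14, ADIPOQ from -0.18 to 0.87 and LPL from -0.40 to 0.38. The settings for genes outside the matrix list were added after the data were seen. The cause of these changes was not tested, and the covariate cannot be fully told apart from the group. Dim genes such as P4HA1 and POSTN are limited by their signal over background.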
